A study of Mus musculus with 5 samples.

Results

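The genes described here encode the contractile apparatus of smooth muscle and its counterparts in other cells, in EpH4 mouse mammary epithelial cells with and without an sgRNA against Mef2d. They were taken from a list of 10 named genes (Acta2, Tagln, Tagln2, Cnn1, Cnn2, Myl9, Tpm1, Tpm2, Cald1 and Mylk), of which 9 were among the 12934 genes of the count table used here and all 9 were among the 12483 genes tested. The RNA of Cnn1, the calponin of differentiated smooth muscle, was not analysed here. The sgControl group (3 libraries) was Cas9-expressing EpH4 cells infected with a control sgRNA, and the sgMef2d group (2 libraries) was the same Cas9-expressing cells infected with an sgRNA against Mef2d. Both groups therefore carried Cas9 and had passed blasticidin and puromycin selection, in DMEM with serum. The labels do not say which of the study's Mef2d sgRNAs a library carries, and nothing in them says that libraries of a group came from separate cultures, so the p-values below measure only the spread between these libraries.

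Contraction in smooth muscle and in epithelial stress fibres rests on the same machine. Myosin II pulls on actin filaments once its regulatory light chain has been phosphorylated, which myosin light chain kinase does in response to calcium and calmodulin. Myosin phosphatase removes the phosphate, and ROCK, which acts against the phosphatase, sustains the phosphorylation. Tropomyosins, caldesmon and calponins lie along the filament and set the access of myosin to it, and transgelins bundle filaments. In the mammary gland the contractile cells are the myoepithelial cells of the basal layer, which carry smooth muscle actin together with basal keratins. Many of these genes are classical targets of the transcription factor SRF, which binds the CArG box, and of its actin-sensing cofactors MRTFA and MRTFB. MEF2 proteins belong to the same MADS-box family as SRF.

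The stretches of 250 bases before the annotated start of 4 of the genes are shown because they hold, or in the case of Tpm2 lack, the sequence by which SRF recognizes contractile genes. They are RefSeq sequences on build GRCm38.p6, written 5′ to 3′ on the strand of the gene, with matches to the CArG box, exact or with 1 base off, in capitals. The Acta2 stretch lies at chr19:34255374-34255623 on the minus strand, Cnn2 at chr10:79988350-79988599 and Myl9 at chr2:156775214-156775463 on the plus strand, and Tpm2 at chr4:43523555-43523804 on the minus strand.
Acta2: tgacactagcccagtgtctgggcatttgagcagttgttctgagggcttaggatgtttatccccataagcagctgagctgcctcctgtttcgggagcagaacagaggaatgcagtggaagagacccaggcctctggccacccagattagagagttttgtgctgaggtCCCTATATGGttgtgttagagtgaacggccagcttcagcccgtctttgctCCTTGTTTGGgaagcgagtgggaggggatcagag
Cnn2: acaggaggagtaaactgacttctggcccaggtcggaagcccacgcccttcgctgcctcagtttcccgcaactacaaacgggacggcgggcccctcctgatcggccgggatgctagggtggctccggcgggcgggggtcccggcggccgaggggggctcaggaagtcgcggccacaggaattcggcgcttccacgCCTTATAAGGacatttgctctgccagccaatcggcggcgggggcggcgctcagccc
Myl9: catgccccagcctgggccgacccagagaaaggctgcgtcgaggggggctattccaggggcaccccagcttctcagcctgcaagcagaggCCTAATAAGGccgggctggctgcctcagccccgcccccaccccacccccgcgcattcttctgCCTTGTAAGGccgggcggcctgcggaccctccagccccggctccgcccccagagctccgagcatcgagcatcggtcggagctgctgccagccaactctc
Tpm2: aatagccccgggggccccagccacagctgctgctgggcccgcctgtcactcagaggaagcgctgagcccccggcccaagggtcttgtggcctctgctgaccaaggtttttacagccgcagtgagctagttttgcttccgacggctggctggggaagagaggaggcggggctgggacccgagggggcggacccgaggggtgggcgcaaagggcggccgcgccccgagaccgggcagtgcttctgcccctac

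A window of 250 bases before and 50 after the start was found for 9 of the 10 genes, with 10 windows in all because Cald1 has more than 1 start in the table. Tagln was not matched. These 9 genes therefore include Cnn1, whose RNA was not analysed, and leave out Tagln, so they are not the 9 genes tested for RNA. The exact CArG box occurred in Cnn2, at bases -56 to -47 counted from the start, and in Myl9, at bases -161 to -152, as against 1.63% of the 32851 promoter windows of the same length. With 1 base off, which was searched after few exact matches had been seen, Acta2 held CCCTATATGG at bases -84 to -75 and CCTTGTTTGG at bases -34 to -25, and 5 of the 9 genes (Acta2, Cnn2, Myl9, Tpm1 and Cald1) held at least 1 match, as against 21.1% of all windows. The MEF2 element, searched by its consensus on both strands, was found in 0 of the 9 genes and in 3.19% of all windows. The TEAD motif GGAATG was found on either strand in 5 of the 9 genes, among them Tagln2, Tpm1 and Mylk, and in 14.7% of all windows. The TATA box TATAAA was found in 1 gene, Cald1, and in 13.6% of all windows. Such matches describe the sequence only, and say nothing about which factor binds there.

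The libraries held between 13601145 and 20498563 counts, and the level of a gene is given as CPM, its counts scaled by library size (TMM) to a common total. The RNA of Mef2d itself was at 64.3, 76.9 and 71.5 CPM in the control libraries and at 64.2 and 65.8 CPM in the sgMef2d libraries, with a log2 ratio of sgMef2d to sgControl (the fitted log2 fold change) of -0.12 (adjusted p = 0.400, edgeR's quasi-likelihood test), so the RNA level of the target does not check the labels. Mef2d passed without sgControl replicate 1 (-0.19, adjusted p = 0.00535, with 0.00535 to 0.771 across the alternatives). At an adjusted p below 0.05, 992 of all genes tested passed (7.95%), of which 458 (3.67%) had more RNA in sgMef2d and 534 (4.28%) had less. Among the sgControl libraries, replicate 1 stood apart, and without it 3661 genes passed. Epithelial markers were abundant, with Krt8 at 972 CPM, Krt18 at 705 CPM, Epcam at 254 CPM and Cdh1 at 253 CPM on average in sgControl.

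In the control cells the contractile genes fell into very unequal levels. Per kilobase of exon, Tagln2, the widely expressed transgelin, was highest at 366 CPM per kilobase, above 99.3% of the listed genes. The tropomyosin Tpm1 followed with 143, the actin- and myosin-binding caldesmon gene Cald1 with 138, the non-muscle calponin Cnn2 with 117 and the tropomyosin Tpm2 with 59.4 CPM per kilobase. Acta2, which encodes smooth muscle alpha-actin, reached 8.49 CPM per kilobase. The muscle-type genes were lowest, with Myl9, a myosin regulatory light chain, at 1.01, Mylk, the myosin light chain kinase, at 0.680 and Tagln, the smooth muscle transgelin, at 0.531 CPM per kilobase. The sgControl libraries of Tpm1 and Cald1 overlapped (138 to 151 and 137 to 140 CPM per kilobase), as did those of Myl9 and Mylk (0.797 to 1.40 and 0.545 to 0.800) and of Mylk and Tagln (0.464 to 0.613). All other neighbours in this order were separated in every sgControl library. In the sgMef2d cells the order of the means was the same, but Tpm1 (130 and 131 CPM per kilobase) no longer overlapped with Cald1 (110 and 106). Lengths were the union of all annotated exons, so a gene with many alternative exons, such as Cald1 or Tpm1, is set lower than by a single transcript.

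**Figure D1:**
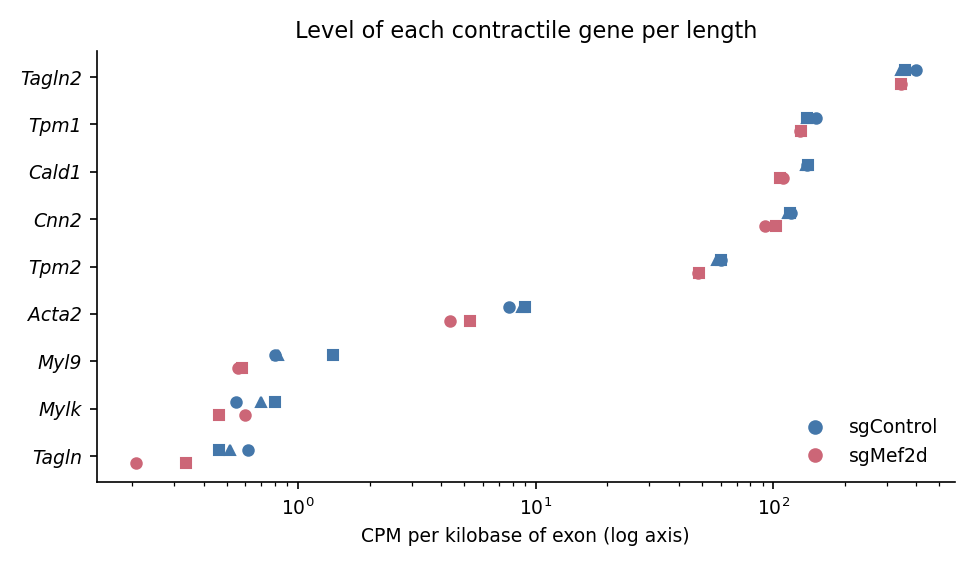
Level of each of the 9 contractile genes in CPM per kilobase of exon, on a log axis, with 1 point per library (3 sgControl in blue, 2 sgMef2d in red; circle, square and triangle are replicates 1, 2 and 3). Tagln2 was highest at 366 and Tagln lowest at 0.531 CPM per kilobase on average in sgControl, and the red points lie to the left of the blue points for 7 of the 9 genes.

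Together the 9 genes took between 3743 and 3963 CPM in the sgControl libraries, and 3263 and 3260 CPM in sgMef2d replicates 1 and 2. Most of this sum was Cald1, Tpm1 and Tagln2, whose sgControl means were 1666, 926 and 762 CPM. Of the 9 genes, 4 were lower in sgMef2d past the threshold (Acta2, Cald1, Tpm2 and Cnn2), 0 were higher, and 5 did not pass. The share past the threshold and lower was 44.4% of the 9, beside 4.28% of all genes tested, and the share past it and higher was 0 beside 3.67%. The fitted log2 ratio was below 0 in all 9, with a median of -0.32 where the median of all genes tested was 0.0031. Both sgMef2d libraries lay below every sgControl library in 7 of the 9 genes, which was the case for 20.5% of all genes tested. In RNA from whole cultures, fewer cells that express a gene and less RNA of it per cell cannot be told apart.

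The gene with the lowest ratio among those that passed was Acta2 (ENSMUSG00000035783.9, chromosome 19 of GRCm38, 34241090 to 34255590, minus strand). In order of replicate number, Acta2 was at 16.9, 19.9 and 19.1 CPM in the control libraries and at 9.59 and 11.6 CPM in the sgMef2d libraries. The lowest control library was well above both sgMef2d libraries. The means were 18.6 ± 1.53 CPM (SD, 3 libraries) and 10.6 ± 1.41 CPM (SD, 2 libraries), and Acta2 fell by 0.81 on the log2 scale (standard error 0.123, 95% interval -1.08 to -0.54, adjusted p = 0.00237, edgeR's quasi-likelihood test), to 0.569 times the control level. Without sgMef2d replicate 1 the fall of 0.68 did not pass (adjusted p = 0.0634), with 3.70e-10 to 0.0634 across the alternatives. Only 0.326% of the 50-base words in its transcripts occur in other genes, among them Actg1, Gm12715 and Gm6375.

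Caldesmon, which holds tropomyosin-coated filaments back from myosin, was the most abundant gene of the list in CPM. Cald1 (ENSMUSG00000029761.16, chromosome 6, 34598500 to 34775473) had 1664, 1684 and 1649 CPM in sgControl and 1325 and 1279 CPM in sgMef2d. The control libraries lay close together, and the sgMef2d libraries lay well below them. The log2 ratio was -0.36 (standard error 0.0590, 95% interval -0.49 to -0.23, adjusted p = 0.00389 from the same test), or 0.782 times the control level. The call was lost without sgMef2d replicate 1 or 2 (adjusted p = 0.0870 and 0.146), with 4.45e-18 to 0.146 across the alternatives. Its counts sum 18 annotated transcripts, and do not show which of the caldesmon forms was lower.

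The tropomyosins, which wind along the actin filament, differed in how clearly they moved. Tpm2 (ENSMUSG00000028464.16, chromosome 4, 43514711 to 43523765) had 176, 175 and 168 CPM in sgControl and 139.7 and 141 CPM in sgMef2d, so the groups did not overlap. Tpm2 fell by 0.30 on the log2 scale (standard error 0.0567, adjusted p = 0.00815), again not past the threshold without sgMef2d replicate 1 or 2 (adjusted p = 0.142 and 0.132, with 3.26e-08 to 0.142 across the alternatives). Tpm1 (ENSMUSG00000032366.15, chromosome 9, 67022590 to 67049406) had 979.9, 901 and 896 CPM in sgControl and 841 and 849.7 CPM in sgMef2d. These groups did not overlap either, but sgControl replicate 1 was well above the other control libraries. Its log2 ratio of -0.13 (95% interval -0.27 to 0.0056) did not pass (adjusted p = 0.234). Without sgControl replicate 1 the difference was smaller, -0.09, but passed (adjusted p = 0.0390), with 0.0390 to 0.645 across the alternatives. All p-values are from edgeR's quasi-likelihood test. Whether the fold changes of Tpm1 and Tpm2 differed from each other was not tested.

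Of the calponins, which bind actin and tropomyosin, Cnn2 is the one of the 10-gene list that was measured. Cnn2 (ENSMUSG00000004665.10, chromosome 10, 79988584 to 79996062) had 292, 288 and 285 CPM in sgControl and 226 and 252 CPM in sgMef2d. The sgMef2d replicates were further apart than the 3 controls, and both were below them. Its log2 ratio was -0.27 (standard error 0.0622, 95% interval -0.41 to -0.13, adjusted p = 0.0228, edgeR's quasi-likelihood test), or 0.830 times the control level. This call was the least stable of the 4. It was lost without sgControl replicate 2 (adjusted p = 0.0831) and without sgMef2d replicate 1 or 2 (adjusted p = 0.327 and 0.0765), with 3.88e-08 to 0.327 across the alternatives.

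The transgelins were at opposite ends of the expression range, and neither passed. Tagln2 (ENSMUSG00000026547.15, chromosome 1, 172500047 to 172507380) had 827, 742 and 717 CPM in sgControl and 714 and 719.9 CPM in sgMef2d. sgMef2d replicate 2 lay above sgControl replicate 3, so the groups overlapped, and the log2 ratio was -0.09 (95% interval -0.24 to 0.063, adjusted p = 0.489, edgeR's quasi-likelihood test). Tagln (ENSMUSG00000032085.5, chromosome 9, 45929619 to 45936058, minus strand), a standard early marker of smooth muscle, had only 25, 13 and 14 counts in sgControl and 7 and 10 counts in sgMef2d. This is 1.22, 0.922 and 1.03 CPM against 0.412 and 0.673 CPM, with no overlap between the groups. The means were 1.06 and 0.543 CPM, and the log2 ratio had an interval from -1.91 to -0.09 and an adjusted p of 0.172 in edgeR's quasi-likelihood test, so Tagln did not pass at this depth. Exons of Tagln overlap those of Pcsk7 and of the antisense gene Gm48529 on the other strand. Pcsk7 had between 26.5 and 32.4 CPM per library and a log2 ratio of 0.10 (adjusted p = 0.575). The libraries mark the strand, but whether the counting used it is not given in the sources used here, and reads of Tagln and Pcsk7 could not be told apart if it did not.

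The genes acting on myosin itself were both low. Myl9 (ENSMUSG00000067818.6, chromosome 2, 156775420 to 156781658) had 19, 23 and 13 counts in sgControl and 11 and 10 in sgMef2d, or 0.926, 1.63 and 0.953 CPM against 0.647 and 0.673 CPM. sgControl replicate 2 was far above the other controls, and the log2 ratio of -0.78 had an interval from -1.70 to 0.13 (adjusted p = 0.291, edgeR's quasi-likelihood test). Mylk (ENSMUSG00000022836.11, chromosome 16, 34745210 to 35002420) had 6.14, 9.01 and 7.84 CPM in sgControl and 6.71 and 5.25 CPM in sgMef2d. The groups overlapped, because sgControl replicate 1 lay below sgMef2d replicate 1. The log2 ratio of Mylk was -0.32 (95% interval -0.74 to 0.094, adjusted p = 0.343), and without sgControl replicate 1 it was -0.48 and passed (adjusted p = 0.0231, with 0.0231 to 0.840 across the alternatives). Exons of Mylk also overlap the antisense genes E130310I04Rik and Gm21691, which were not analysed here.

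**Figure D2:**
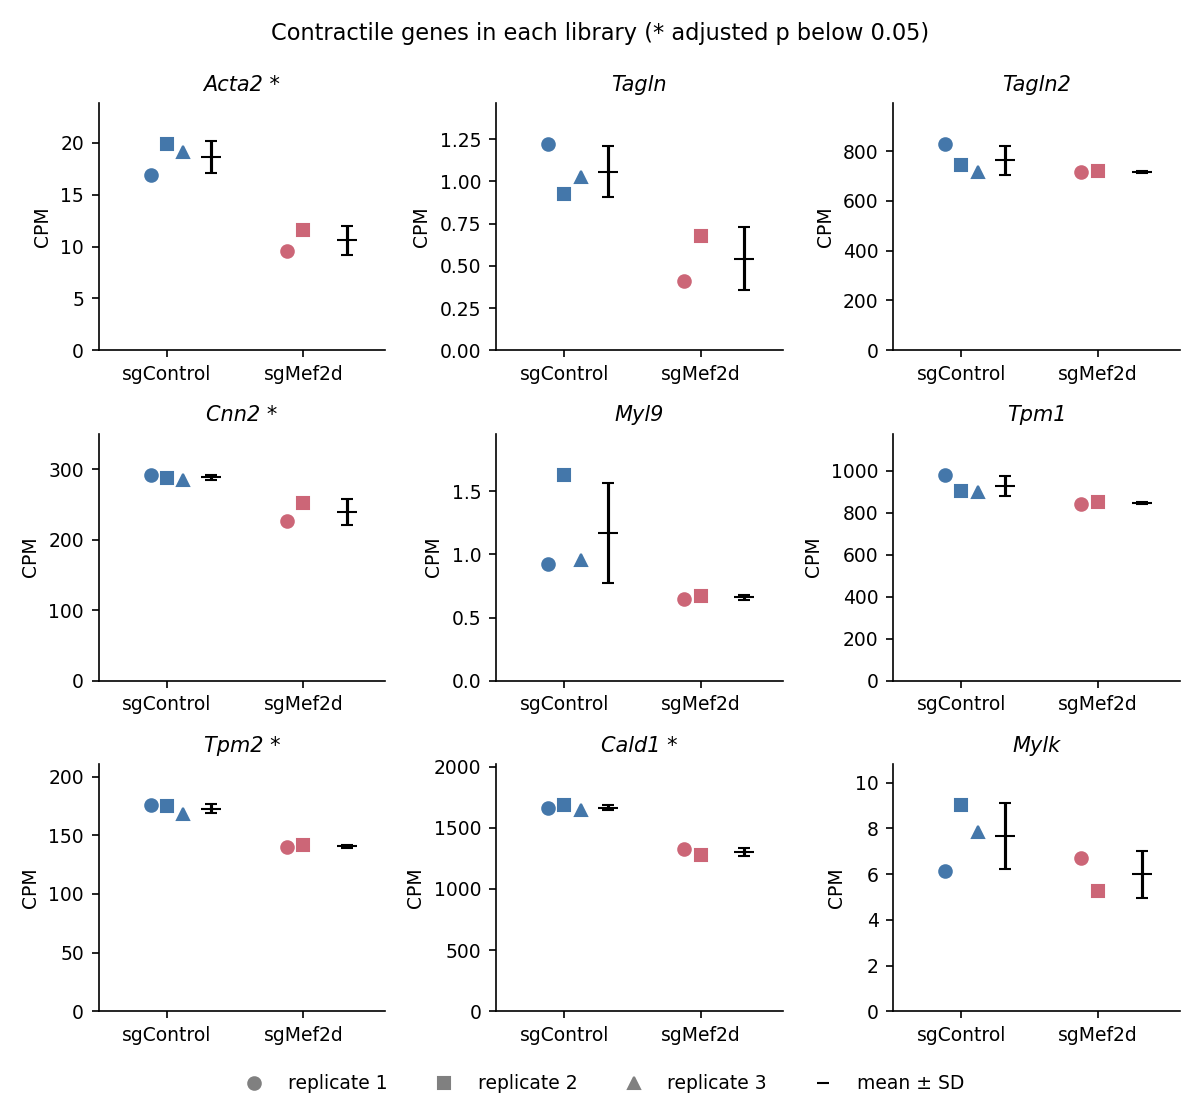
CPM of each contractile gene in each library, on linear axes from 0, with the mean and SD beside the points (3 sgControl libraries in blue, 2 sgMef2d libraries in red). Both sgMef2d libraries lie below every sgControl library for Acta2, Tagln, Cnn2, Myl9, Tpm1, Tpm2 and Cald1, and the groups overlap for Tagln2 and Mylk.

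**Figure D3:**
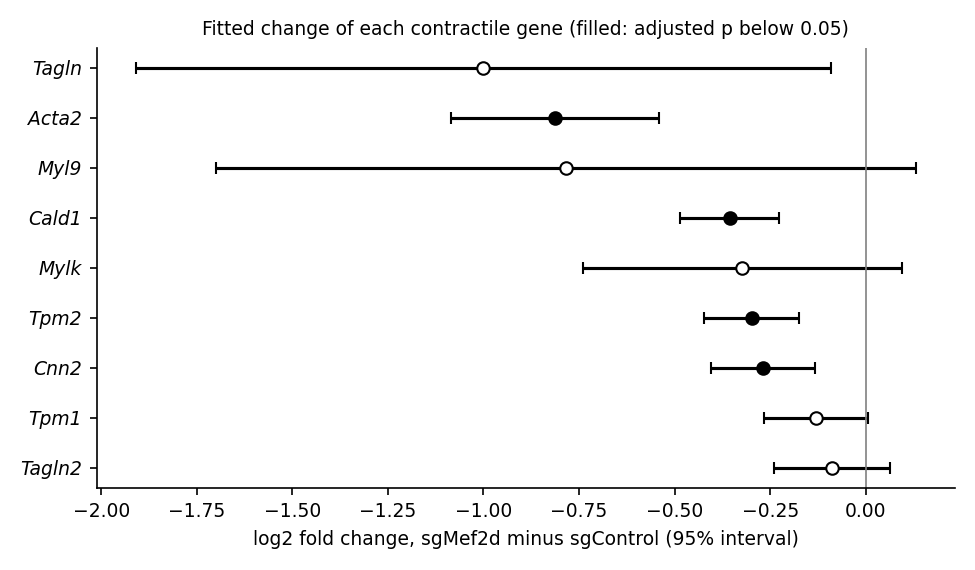
Fitted log2 ratio of each contractile gene, sgMef2d minus sgControl, with its 95% interval from the fit over all genes, filled where the adjusted p was below 0.05. The filled genes are Acta2 (-0.81), Cald1 (-0.36), Tpm2 (-0.30) and Cnn2 (-0.27), and the genes with few counts, Tagln and Myl9, have the widest intervals.

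The 9 genes kept a log2 ratio below 0 in each of the 14 alternative settings in which they could be fitted, whereas their place past the threshold moved with the libraries. Leaving out sgControl replicate 1 gave 6 genes past the threshold, adding Tpm1 and Mylk to the 4, beside 3661 of all genes tested. Leaving out sgControl replicate 2 gave 3 (603 of all genes), and leaving out sgControl replicate 3 gave 4 (822 of all genes). With a single sgMef2d library left, the spread of that library is assumed to be that of the control libraries. The calls of Cald1, Tpm2 and Cnn2 were lost without sgMef2d replicate 1 or 2, and that of Acta2 without sgMef2d replicate 1. Fewer genes also passed over all genes tested in both settings.

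**Figure D4:**
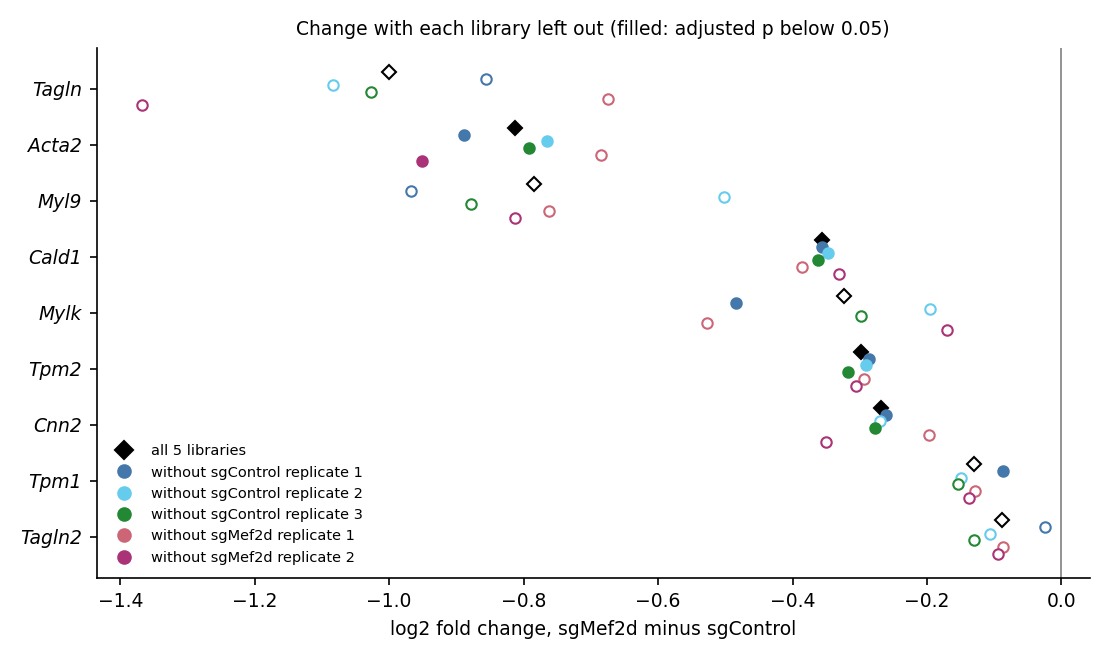
Log2 fold change of each contractile gene, sgMef2d minus sgControl, with all 5 libraries (diamonds) and with each library left out in turn (circles), filled where the adjusted p was below 0.05. Every point lies below 0, Acta2 is filled in all but the setting without sgMef2d replicate 1, and Tagln and Myl9 are filled in none.

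The rest of the contractile machinery was read from 6 wider lists, which share some genes. Over all 6, 84 entries were tested, of which 12 were lower and 4 higher past the threshold (19.0%, beside 7.95% of all genes tested), with a median log2 ratio of -0.05. Without sgControl replicate 1, 47 of these 84 passed, 35 lower and 12 higher, beside 3661 of all 12483 genes. Without sgMef2d replicate 1 or 2, 5 and 7 of the 84 passed, beside 239 and 247 of all genes.

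Among the other actins, tropomyosins and calponins, 1 of 7 passed, beside 7.95% of all genes tested, and 5 did without sgControl replicate 1, where 3661 of all 12483 genes passed. Actg2, which encodes the gamma-actin of smooth muscle, had 2.34, 1.42 and 2.49 CPM in sgControl and 0.883 and 0.875 CPM in sgMef2d, a log2 ratio of -1.26 (adjusted p = 0.0494, edgeR's quasi-likelihood test). The groups did not overlap, but the call sat at the threshold and was lost in 8 of the 13 alternatives that gave it a value, with an adjusted p of 0.0192 to 0.284 across them, including 0.0974 without sgControl replicate 3, and 0.276 and 0.284 without sgMef2d replicate 1 and 2. Actb, the cytoplasmic beta-actin and the most abundant gene of this list, had 4470 ± 35.6 CPM (SD, 3 libraries) and 4159 ± 197 CPM (SD, 2 libraries), a log2 ratio of -0.10 (adjusted p = 0.391). It passed without sgControl replicate 1 (adjusted p = 0.0143, with 0.0143 to 0.863 across the alternatives). Of the myosin II genes, 0 of 8 entries passed in edgeR's quasi-likelihood test, in DESeq2 or in limma-voom, beside 7.95% of all genes tested in edgeR's test, and 1 had an unadjusted p below 0.05, as did 2901 of all 12483 genes. In this list Myl12b counts under 2 identifiers. Without sgControl replicate 1, 4 of the 8 passed, beside the same 3661 of all genes. The most abundant, Myh9, the heavy chain of non-muscle myosin IIA, had a log2 ratio of -0.18 (adjusted p = 0.308), and without sgControl replicate 1 of -0.28 (adjusted p = 3.20e-11, with 3.20e-11 to 0.751 across the alternatives). The heavy chain of smooth muscle myosin, Myh11, was not analysed here.

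The branch that sets the phosphorylation of the myosin light chain had 3 of 22 genes past the threshold, all lower (13.6%, beside 4.28% of all genes tested that were lower). The count was 12 without sgControl replicate 1 (3661 of all 12483 genes) and 1 without sgMef2d replicate 1 or 2 (239 and 247 of all genes). Ppp1r12b, a targeting subunit of myosin phosphatase, had 345, 406 and 402 CPM in sgControl and 247 and 259 CPM in sgMef2d. The lowest control was far above both sgMef2d libraries, and the log2 ratio was -0.60 (adjusted p = 7.58e-04, edgeR's quasi-likelihood test), past the threshold in each alternative run. Calm2, a calmodulin gene and the most abundant of this list, had a log2 ratio of -0.013, which turned positive without sgControl replicate 1 or sgMef2d replicate 2.

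Of the genes that crosslink, cap or anchor filaments in stress fibres, 6 of 27 were lower and 1 was higher, beside 4.28% and 3.67% of all genes tested. These 7 calls became 15 without sgControl replicate 1, 4 without sgControl replicate 2, and 2 without sgMef2d replicate 1 or 2, where 3661, 603, 239 and 247 of all 12483 genes passed. Synpo, which encodes the actin-associated synaptopodin, had 32.1, 33.3 and 37.2 CPM in sgControl and 16.8 and 17.8 CPM in sgMef2d. Its log2 ratio of -0.98 (adjusted p = 1.27e-04) was past the threshold in each alternative run. Pdlim5 and Pdlim7, adaptors with PDZ and LIM domains, stood at -0.52 and -0.33 on the log2 scale (adjusted p = 4.64e-04 and 0.00662). Pdlim5 kept its call in each alternative run, and Pdlim7 lost it without sgMef2d replicate 1 or 2 (adjusted p = 0.148 and 0.0694, with 8.92e-10 to 0.148 across the alternatives). The other 3 lower genes, named here to complete the count, were Csrp1, Dstn and Actn1. The higher gene was Pdlim1, with 3, 0 and 1 counts in the sgControl replicates and 14 and 10 counts in sgMef2d, which is too few for a fold to be given, and its call was lost without sgControl replicate 2 (adjusted p = 0.0638) or either sgMef2d library (adjusted p = 0.181 and 0.1005, with 5.53e-04 to 0.181 across the alternatives). Flna, the filamin that links actin to the membrane and the most abundant of the list, had a log2 ratio of -0.22 (adjusted p = 0.141). It passed with the length and GC trend removed (-0.18, adjusted p = 0.0397) and without sgControl replicate 1 (-0.29, adjusted p = 8.52e-14, with 8.52e-14 to 0.567 across the alternatives). All p-values are from edgeR's quasi-likelihood test.

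**Figure D5:**
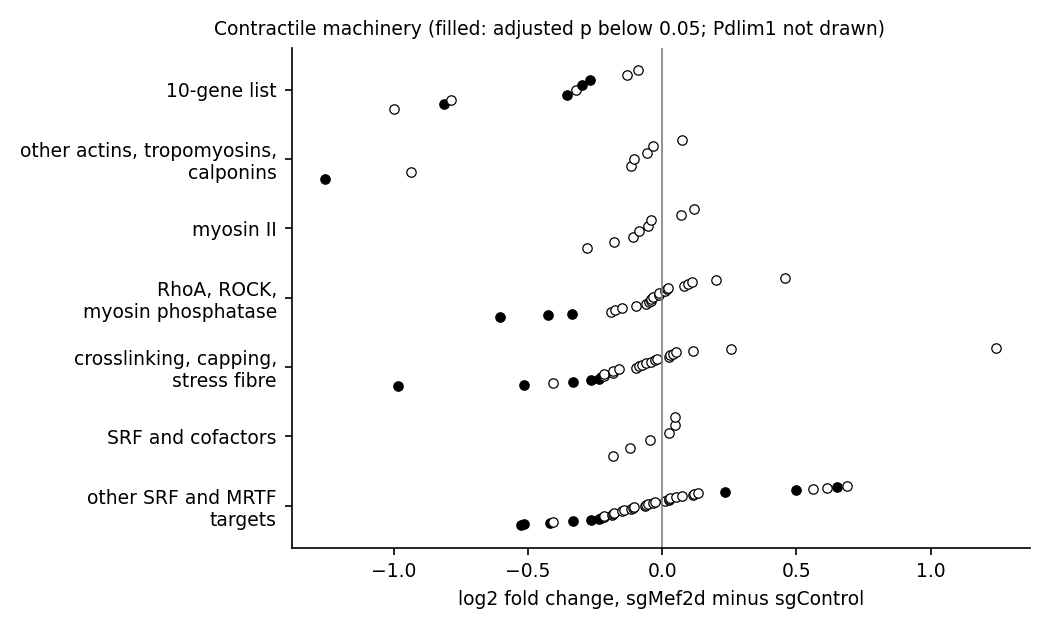
Log2 fold change, sgMef2d minus sgControl, of the genes of the 10-gene list and of 6 wider lists of the contractile machinery and of SRF, with 1 point per gene, filled where the adjusted p was below 0.05. Of the 84 entries in the wider lists, 12 were lower and 4 were higher past the threshold, and Pdlim1, with 4 counts in all control libraries, is not drawn.

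The transcription factor and cofactors that drive many of these genes were measured as well. Srf had 113, 114 and 107 CPM in sgControl and 109 and 118 CPM in sgMef2d, with a log2 ratio of 0.024 (95% interval -0.12 to 0.16, adjusted p = 0.865, edgeR's quasi-likelihood test). Mrtfa and Mrtfb had log2 ratios of 0.046 (95% interval -0.14 to 0.23, adjusted p = 0.800) and -0.18 (95% interval -0.35 to -0.021, adjusted p = 0.162), and Mrtfb passed without sgControl replicate 1 (-0.23, adjusted p = 0.00155, with 0.00155 to 0.562 across the alternatives). The directions of Srf and Mrtfa turned in some alternatives. Myocd, the smooth muscle cofactor, was not analysed here. In all, 0 of the 6 genes of this list passed in edgeR's test, DESeq2 or limma-voom, beside 7.95% of all genes tested in edgeR's test. An unadjusted p below 0.05 was found for 1 of the 6 and for 2901 of all 12483 genes, and without sgControl replicate 1, 2 of the 6 and 3661 of all genes passed. RNA levels do not show where the cofactors are in the cell.

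The other SRF and MRTF targets moved in both directions, with 7 of 38 entries lower and 3 higher, beside 4.28% and 3.67% of all genes tested, and a median log2 ratio of -0.06. These 10 calls became 24 without sgControl replicate 1, 5 without sgControl replicate 2, and 3 and 5 without sgMef2d replicate 1 and 2, again beside 3661, 603, 239 and 247 of all genes. The lower genes with the smallest p were Pdlim5, described above, Filip1l (-0.53, adjusted p = 0.00157) and Ccn2, a secreted matricellular protein (-0.42, adjusted p = 0.00245). Filip1l lost its call without sgMef2d replicate 1 (adjusted p = 0.0608, with 1.66e-09 to 0.0608 across the alternatives), and Ccn2 without sgMef2d replicate 2 (adjusted p = 0.0825, with 5.30e-14 to 0.0825 across the alternatives). The higher gene with the smallest p was Itga5, the alpha chain of the fibronectin receptor, which rose from 84.0 ± 5.97 CPM (SD, 3 libraries) to 132 ± 9.19 CPM (SD, 2 libraries), a log2 ratio of 0.65 (adjusted p = 4.285e-04), and kept its call in each alternative run. The other higher genes, Ier2 and Junb, named to complete the count, are immediate early genes. All are from edgeR's quasi-likelihood test.

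Smooth muscle actin marks myoepithelial cells together with basal keratins. In the marker list the basal keratins and Trp63 went the other way from Acta2, but the contractile genes tested did not pass as higher. Of these, Actg2 was lower, and Smtn had a log2 ratio of 0.024 (adjusted p = 0.860, edgeR's quasi-likelihood test). Of 6 basal and myoepithelial markers tested, 4 were higher past the threshold and 1, Actg2, was lower (beside 3.67% and 4.28% of all genes tested), and 3 of the 5 calls were left without sgMef2d replicate 2. Krt14, a basal keratin, rose from 439 ± 3.50 CPM (SD, 3 libraries) to 902 ± 38.6 CPM (SD, 2 libraries), with no overlap, a log2 ratio of 1.04 (adjusted p = 1.68e-06, edgeR's quasi-likelihood test). Trp63, the basal transcription factor p63, rose by 0.74 on the log2 scale (adjusted p = 4.84e-04). Krt5 had 3, 0 and 1 counts in the sgControl replicates and 260 and 211 in sgMef2d. Krt17 had 6, 8 and 17 counts in sgControl and 50 and 51 in sgMef2d, and its adjusted p of 0.00438 became 0.0590 without sgMef2d replicate 2, with 4.60e-11 to 0.0590 across the alternatives. The whole marker list took between 583 and 593 CPM in sgControl and 1055 and 1120 CPM in sgMef2d. Most of this sum, and of its rise, was Krt14. Its members Oxtr, Myh11 and Lmod1 were not analysed here. The part of these markers in the fall of Acta2 was not tested.

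Of 7 fibroblast markers tested, 2 were lower and 2 higher, beside 4.28% and 3.67% of all genes tested. Postn, a matrix protein, fell from 778 ± 5.11 CPM (SD, 3 libraries) to 481 ± 5.85 CPM (SD, 2 libraries) and Col1a2, a chain of type I collagen, by 0.54 on the log2 scale (adjusted p = 3.01e-05 and 2.32e-04 in edgeR's quasi-likelihood test), and both kept their calls in each alternative run. Col3a1 and Dcn rose by 1.45 and 1.23 on the log2 scale from means of 1.85 and 1.38 CPM in sgControl, Dcn not past the threshold without sgControl replicate 2 (adjusted p = 0.0546) or either sgMef2d library (0.177 and 0.128, with 3.54e-05 to 0.177 across the alternatives). Together these markers took between 1369 and 1477 CPM in sgControl and between 1027 and 1060 CPM in sgMef2d. Most of this sum, and of its fall, was Postn and Col1a2. Col1a1 went the other way, from 168 to 219 CPM on average, but its log2 ratio of 0.39 did not pass (adjusted p = 0.135, edgeR's quasi-likelihood test). Pdgfra and Twist1 were lower and did not pass either. Lum, Thy1 and Fap were not analysed here. Their part in the results on the contractile genes was not tested.

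The genes most like Acta2 were sought by the root-mean-square distance between centred log2 CPM values over the 5 libraries, among the 8040 other genes whose log2 CPM averaged 4 or more. Acta2 was also the gene of the list with the smallest p in edgeR's test, so a single search was made. The nearest was Pik3r1, a regulatory subunit of PI3-kinase, at a distance of 0.0423, with 79.4, 96.0 and 95.9 CPM in sgControl and 49.0 and 55.8 CPM in sgMef2d. Aldh3a1, an aldehyde dehydrogenase, followed at 0.0755 and the predicted gene Gm8995 at 0.0774. Like Acta2, Pik3r1 was lowest in replicate 1 of each group. The log2 ratios of the 3 genes were -0.78, -0.71 and -0.81, beside -0.81 for Acta2. The 3 genes were chosen for closeness to Acta2 over these same libraries. The near ratios and the shared low replicate 1 therefore follow from the choice.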

How the data were processed

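Poly(A)-selected, strand-marked RNA-seq libraries of EpH4 cells were used, 3 sgControl and 2 sgMef2d. The authors aligned the reads with STAR to GRCm38 and deposited raw counts per gene, and the submitters' processing notes also name CASAVA and Subread. The methods give GENCODE version 22, and GENCODE M21 held all 12934 identifiers of the table (12811 with the same version). Each listed gene reached at least 11 counts in a library, which points to a filter on low counts ahead of the deposit. No column of sample values was set aside (0 columns).

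Counts were scaled with TMM factors and filtered with the group-aware default of edgeR 4.0.16 (R 4.3.3), which left 12483 genes. The comparison used edgeR's bias-adjusted quasi-likelihood method, with Benjamini-Hochberg adjustment over all genes tested and a threshold of 0.05. Standard errors came from the log2 ratio and its F, and intervals (95%) from the same fit. A prior count of 2 was added for log2 CPM. A count of 3, taken as the floor, equalled 0.146 to 0.220 CPM. No source names molecular identifiers, so intervals take in counting error and the spread of libraries only. The fit was tested on simulated data drawn with the mean levels and dispersions of these libraries.

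The members and the gene lists were chosen with earlier results of these data known, so no list was given a p-value of its own. The genes named were all members, the targeted gene, SRF and its cofactors, and of each other list the genes past the threshold (at most 4, by smallest p) and the most abundant gene. The values of 2 genes of the myosin phosphatase list that passed are not reported here. The alternatives were RLE and upper-quartile factors, other filters, DESeq2 1.42.0, limma-voom (limma 3.58.1), the legacy quasi-likelihood form, a replicate block, a correction per library for length and GC content (loess, span 0.3), a threshold of 0.01 and leaving out each library. Motifs were searched in RefSeq promoter windows of GRCm38.p6, and in 10 of 10 windows the bases after the start lie in a transcript of the same gene.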

Additional observations from a re-analysis of the deposited data

How the results depend on the processing

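Of 123 values of the contractile genes under 14 alternatives, 113 kept their direction and their side of the threshold, 8 lost the threshold, 2 gained it and 0 reversed. The 10 changes all came from leaving out a library. Under the other normalizations, filters and tests, the block and the length and GC correction, 4 contractile genes passed each time. Leaving out each library in turn moved the count over all genes between 239 and 3661, of the contractile genes between 0 and 6, of the wider lists between 5 and 47, and the median of the contractile genes between -0.386 and -0.290 on the log2 scale. At a threshold of 0.01 the counts were 422 over all genes, 3 of the contractile genes (Cnn2 did not pass) and 9 in the wider lists. The labels number replicates in both groups without saying what a number marks, and the deviations of same-numbered libraries correlated by 0.0113 and -0.00092. With the replicate block, 1254 genes passed, 901 of them among the 992, and the same 4 contractile genes. No sgMef2d library carries the number of sgControl replicate 3, so with the block that library adds nothing to the fitted difference. Little is then left to measure the spread, which limits the p-values of that setting.

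Reversals concerned genes near 0. Srf was at -0.0038 with the replicate block, -0.067 with the length and GC trend removed, and between -0.0351 and 0.0773 without single libraries. Mrtfa was at -0.0065 with that trend removed, and between -0.0365 and 0.1074 without single libraries. Calm2 was between -0.0685 and 0.0505 without single libraries. Krt8 was at -0.0002 with RLE factors and with DESeq2, -0.0008 without a filter, -0.0022 with the stricter filter, -0.0030 with the replicate block, -0.0853 with the trend removed, and between -0.0315 and 0.0293 without single libraries. Pdgfrb was at 0.0274 with the replicate block and between -0.1738 and 0.0208 without single libraries. The cause was not tested in any of these. Depth limits Tagln, Myl9, Actg2 and Pdlim1, with fewer than 50 counts in every library.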

Other observations

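Of markers of other contractile and vascular cells, few were analysed here. Among vascular smooth muscle and pericyte markers 3 of 10 were tested. Notch3 rose from 1.23 ± 0.479 CPM (SD, 3 libraries) to 4.19 ± 0.932 CPM (SD, 2 libraries), with a log2 ratio of 1.83 (adjusted p = 0.00399, edgeR's quasi-likelihood test), not past the threshold without sgMef2d replicate 2 (adjusted p = 0.0688, with 1.36e-09 to 0.0688 across the alternatives). Actg2 is given above, and Pdgfrb, the most abundant of these markers at 84.2 CPM in sgControl, had a log2 ratio of -0.046 (adjusted p = 0.843), but -0.17 without sgControl replicate 1 (adjusted p = 0.00613, with 0.00613 to 0.953 across the alternatives). The list took between 72.4 and 95.6 CPM in sgControl and 85.6 and 87.0 CPM in sgMef2d. Des, Rgs5, Cspg4, Kcnmb1 and Myh11 were not analysed here.

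Of the skeletal and heart muscle markers, 3 were tested and 0 passed in edgeR's test, DESeq2 or limma-voom, beside 7.95% of all genes tested in edgeR's test. An unadjusted p below 0.05 was found for 2 of the 3 and for 2901 of all 12483 genes, and without sgControl replicate 1, 1 of the 3 and 3661 of all genes passed. The most abundant, Tnnt2, was at 67.6 CPM in sgControl and 74.6 CPM in sgMef2d. The list took between 78.1 and 80.7 CPM in sgControl and between 87.3 and 87.7 CPM in sgMef2d. The luminal markers took between 2557 and 2675 CPM in sgControl and between 2524 and 2620 CPM in sgMef2d. Of the 7 tested, Cldn4 rose by 0.26 on the log2 scale (adjusted p = 0.0407) and Krt18 fell by 0.26 on the log2 scale (adjusted p = 0.0207), by the same test, and neither passed without sgControl replicate 2 (adjusted p = 0.136 and 0.0638) and without sgMef2d replicate 1 (0.332 and 0.282) or 2 (0.241 and 0.196), Cldn4 also not without sgControl replicate 3 (0.112), with the replicate block (0.0905) or with the length and GC trend removed (0.0536), with 9.76e-10 to 0.332 and 1.06e-08 to 0.282 across the alternatives. Of the endothelial and blood markers 3 were tested, and Cd14, the most abundant, fell from 37.8 ± 3.89 CPM (SD, 3 libraries) to 29.8 ± 1.25 CPM (SD, 2 libraries), at an adjusted p of 0.0472 that was lost in 7 of 14 alternatives, among them without sgControl replicate 2 (0.0509) and without sgMef2d replicate 1 (0.211) or 2 (0.370), with 0.00365 to 0.370 across the alternatives.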
